A study of Mus musculus with 24 samples.

Results

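Mouse p53 target genes were followed after tumour irradiation in myeloid cells. The set holds 32 genes, listed by name from the known p53 programme, with any gene short of 10 counts in 3 libraries to be left out: Cdkn1a, Phlda3, Mdm2, Ccng1, Bax, Bbc3, Pmaip1, Trp53inp1, Sesn1, Sesn2, Zmat3, Aen, Eda2r, Fas, Tnfrsf10b, Btg2, Gdf15, Rrm2b, Polk, Ddb2, Xpc, Dcxr, Ei24, Plk2, Plk3, Tigar, Perp, Ercc5, Ak1, Psrc1, Ephx1 and Apaf1. These members, and the other gene lists used below, were chosen with earlier results of these data known. The members' symbols were matched to Ensembl identifiers, and 32 of 32 were found among the 54446 identifiers with counts. With at least 10 counts in at least 3 Input libraries, 32 of the 32 also belonged to the 16090 genes tested.

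p53 is a transcription factor that is kept at a low level by the ubiquitin ligase Mdm2 and accumulates when DNA is broken, as it is by ionizing radiation. It binds a paired, palindromic DNA element near its target genes and raises their transcription, so that cells stop dividing, repair the damage or die. Because Mdm2 is itself a target, the response limits itself. Blood-forming and lymphoid tissues are known for a strong response, while mature myeloid cells divide little.

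The study sorted CD11b+ myeloid cells from tumours that C57BL/6J mice had grown from the colon carcinoma line MC38; the mice were of both sexes and aged 8 to 10 weeks. WT mice were Ythdf2 fl/fl without Cre, and cKO mice were Lyz Cre; Ythdf2 fl/fl, in which Cre is driven by the lysozyme gene active in myeloid cells, so that both genotypes carried floxed Ythdf2. Ythdf2 encodes a protein that binds N6-methyladenosine (m6A) in RNA and speeds its decay. Tumours were sham-treated per the study's methods (Ctrl) or received a single local dose of 20 Gy (IR), with collection 3 days later. PolyA RNA was sequenced as Input or after m6A immunoprecipitation (IP), in 3 replicates per group and 24 libraries in all. Each replicate pooled cells of 5 mice and was called technical in the description of the cells, so the errors below measure the spread between libraries. Levels are given as CPM, counts divided by the scaled depth of the library, with scaling done within Inputs or within IPs (Lyz2, Ythdf2 and the summed cell markers are relative to unscaled library totals), fold changes are on the log2 scale with their SE, and a gene was called at an edgeR adjusted p below 0.05.

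Inputs held 65.18 to 83.66 M gene counts and IPs 68.85 to 86.42 M, so counting error was small for most members. Lyz2, the gene into which Cre is inserted, lay at a mean of 20563 and 20276 CPM in the WT Ctrl and WT IR Inputs and at 302 and 416 CPM in the cKO Inputs, as the labels have it. In the Ctrl IPs it was 17312 CPM for WT and 98.1 for cKO, but the irradiated IPs showed 96.7 CPM under the WT label and 20826 under the cKO label. Lyz2 in the irradiated IPs was thus at the level seen elsewhere in the opposite genotype, and irradiation effects in IPs are therefore given as the mean over both genotypes, which does not depend on this label. Ythdf2 counts did not fall in the Inputs labelled cKO, with means of 179 and 226 CPM in Ctrl and IR against 96.7 and 103 CPM in WT. The WT IR Inputs differed more among themselves than the replicates of any other group, with a chi-square per degree of freedom of 9.72 to 37.6 between pairs against 3.53 to 8.54 elsewhere. Summed macrophage markers (9 genes) ranged from 5824 to 7414 CPM over the Inputs, whereas 6 of 9 lymphocyte, 5 of 9 epithelial and 3 of 6 fibroblast markers were below the count filter. Of 5 endothelial markers 1 was below it, and they summed to 114 to 185 CPM over the Inputs. These filter counts are for the Inputs. Epithelial markers summed to 6.09 to 8.29 CPM in the Inputs but to 88.1 to 129 CPM in the IPs, most of it from Cdh1. Haemoglobin and other erythroid markers (6 genes) summed to 27.4 to 29.9 CPM in the WT IR Inputs and to at most 0.0668 CPM in any other Input.

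Matches to the p53 consensus element were sought within 2500 bases on either side of each gene start, with the invariant C and G of both repeats required and no spacer. The element reads the same on both strands. With at most 1 mismatch 5 of 32 members had a match (15.6%), against 0.874% of the 12809 protein-coding genes tested, and with at most 2 mismatches 11 members did (34.4%), against 5.5%. The closest matches are shown because these genes rose in the Inputs of both genotypes, with the core C and G in capitals, 5′ to 3′ on the strand of the gene, in GRCm38 (mm10) coordinates with sequence from RefSeq.
Zmat3 (chr3:32364331-32364350, minus strand, exonic in a single annotated transcript, 0 mismatches): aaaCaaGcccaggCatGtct
Psrc1 (chr3:108384656-108384675, plus strand, intron, 1 mismatch): gggCatGttgaggCatGccc
Gdf15 (chr8:70631966-70631985, minus strand, exonic in a single annotated transcript, 1 mismatch): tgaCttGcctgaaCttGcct
Ccng1 (chr11:40754936-40754955, minus strand, intron, 1 mismatch): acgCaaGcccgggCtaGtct
Ccng1 (chr11:40755462-40755481, minus strand, 170 bases upstream, 1 mismatch): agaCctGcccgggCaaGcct
Cdkn1a (chr17:29090928-29090947, plus strand, 48 bases upstream, 1 mismatch): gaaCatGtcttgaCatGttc
The other members with a match at 2 mismatches were Bax, Perp, Plk2, Pmaip1, Fas and Eda2r. A match describes letters in the window, and binding by p53 was not measured here.

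p53 target genes rose together after irradiation in both genotypes. In WT IR against WT Ctrl, 25 of 32 members rose, against 14.7% of all genes tested, and 1 fell, against 17.0%. In cKO IR against cKO Ctrl, 25 rose, against 21.8%, and 3 fell, against 23.8%. The median change of the members was 0.52 in both, while the median of all genes was 0.006 in WT and 0.010 in cKO. Of the 32 members, 24 rose in both genotypes. Ercc5 was called in WT alone, Tigar in cKO alone, Sesn1 fell in both, Xpc and Apaf1 fell in cKO, and Btg2, Ddb2 and Plk3 were called in neither. At least 2-fold rises were seen for 5 members in each genotype, against 1.5% of all genes in WT and 1.59% in cKO. The 3 irradiated Inputs lay entirely above the 3 controls for 25 members in WT, against 19.1% of all genes, and for 25 in cKO, against 27.2%. Both contrasts use different libraries and share no controls. Leaving out replicate 1, 2 or 3 of the WT IR Inputs gave 25, 25 and 23 members higher in WT.

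**Figure D1:**
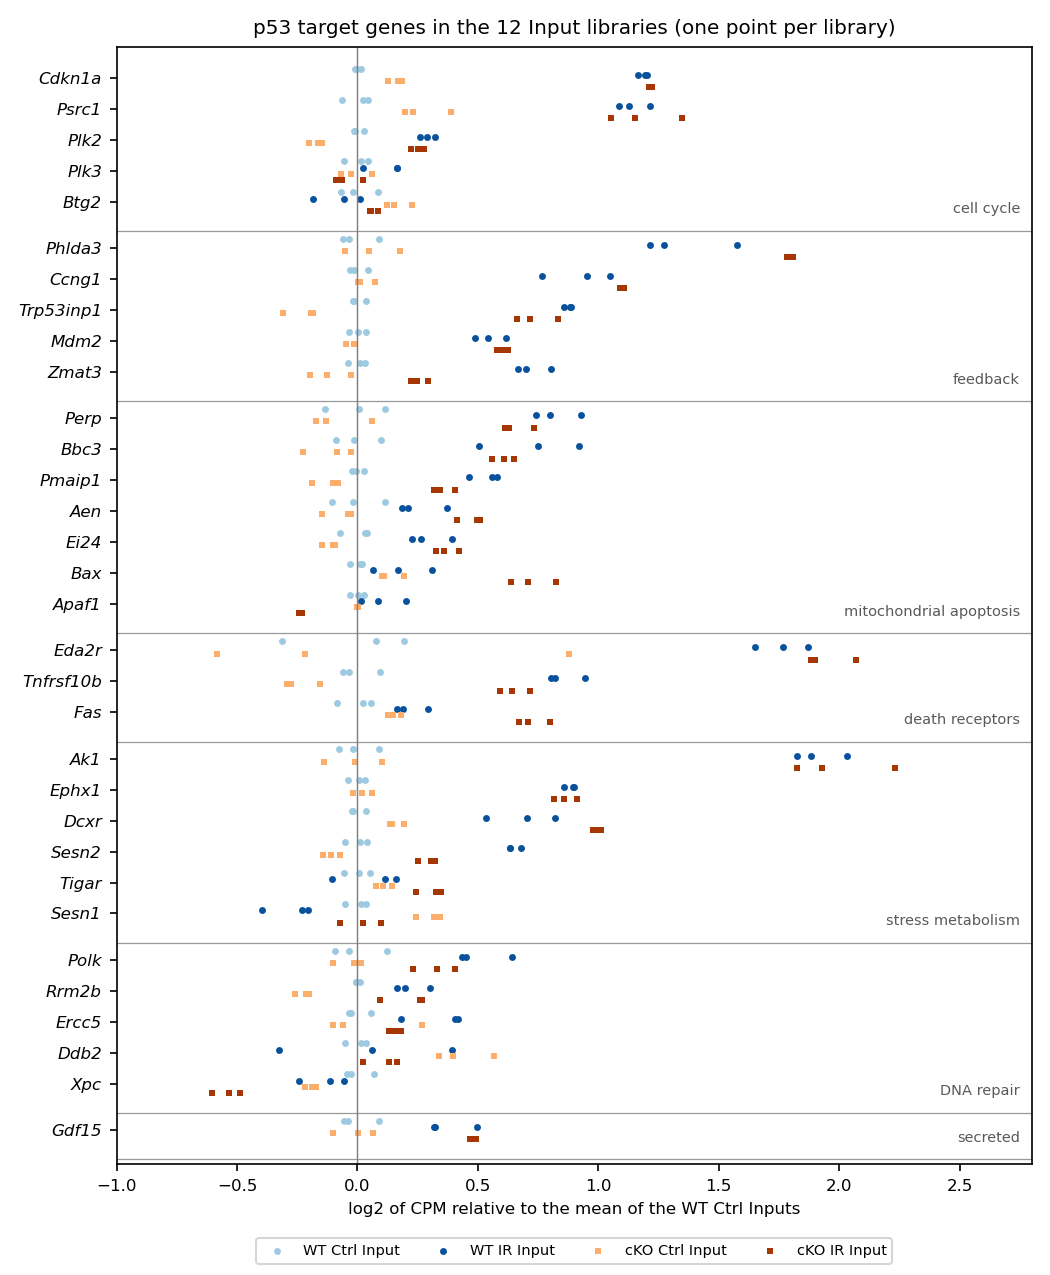
Each point is 1 Input library and gives the log2 of the CPM of a p53 target gene relative to the mean of the 3 WT Ctrl Inputs, with genes grouped by role and ordered by their mean irradiation effect. Dark points (irradiated) stand to the right of light points (control) for most genes, with the largest shifts in Ak1, Eda2r, Phlda3, Cdkn1a and Psrc1, and Sesn1 and Xpc run the other way.

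Markers of granulocytes and of other myeloid cells moved with irradiation in the Inputs as well. Summed markers of granulocyte progenitors (5 genes) fell from 67.8 to 76.8 CPM in the WT Ctrl Inputs to 0.244 to 0.472 CPM in WT IR, and from 22.3 to 24.4 to 0.349 to 0.445 CPM in cKO. Neutrophil markers (10 genes) went from 2916 to 3020.5 CPM down to 792 to 830 CPM in WT and from 1399.5 to 1421 down to 747 to 761 CPM in cKO. Monocyte markers (6 genes) went from 1155 to 1213 CPM down to 644 to 707 in WT. In cKO they went from 1042 to 1066 CPM down to 715 to 734. Macrophage markers (9 genes) were also lower, at 5824 to 6307 CPM in WT IR against 6625 to 6792 in WT Ctrl, and likewise in cKO. Dendritic cell markers (7 genes) overlapped in WT and were higher in cKO IR (2338 to 2423 CPM) than in cKO Ctrl (2102 to 2152). In sorted bulk cells fewer cells of a type and less RNA per cell cannot be told apart, and the part of these shifts in the members' changes was not tested.

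Among the genes that act on the cell cycle, Cdkn1a encodes p21, the inhibitor of cyclin-dependent kinases through which p53 arrests the cycle. Cdkn1a stood at 88.00, 86.5 and 87.2 CPM in WT Ctrl and 95.3, 97.9 and 99.02 in cKO Ctrl, against 196, 199 and 201 in WT IR and 204, 202 and 204 in cKO IR. Every irradiated Input lay far above every control, at 2.28-fold in WT and 2.08-fold in cKO, and the log2 changes were 1.19 ± 0.032 in WT and 1.06 ± 0.032 in cKO (edgeR adjusted p = 3.5e-16 and 3.8e-15). Psrc1, a spindle protein, was expressed at 2.96, 2.74 and 2.92 CPM in WT Ctrl and 3.38, 3.76 and 3.30 in cKO Ctrl, against 6.09, 6.66 and 6.27 in WT IR and 5.96, 7.30 and 6.39 in cKO IR. Irradiated Inputs stood 2.21-fold and 1.88-fold above controls without overlap, with changes of 1.14 ± 0.11 in WT and 0.91 ± 0.10 in cKO. Plk2, a polo-like kinase induced by stress, rose less, by 0.29 ± 0.035 and 0.42 ± 0.036. The related kinase Plk3 and Btg2, which restrains proliferation through mRNA deadenylation, were not called, with changes of 0.12 ± 0.065 in WT and -0.033 ± 0.066 in cKO for Plk3 and -0.074 ± 0.052 in WT and -0.10 ± 0.052 in cKO for Btg2. Btg2 was called lower in cKO under 3 alternatives, with -0.19 under an offset for exon length (edgeR adjusted p = 0.00822).

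Members that feed back on p53 or limit survival signalling rose 5 of 5 in both genotypes. Mdm2, the ligase that degrades p53, had 141, 134 and 138 CPM in WT Ctrl and 133, 137 and 136 in cKO Ctrl, against 193, 211 and 201 in WT IR and 212, 209 and 206 in cKO IR. It rose by 0.55 ± 0.036 in WT and 0.62 ± 0.036 in cKO with no overlap between irradiated and control Inputs. Ccng1 encodes cyclin G1, which brings a phosphatase to Mdm2, and lay at 195, 193 and 203 CPM in WT Ctrl and 198, 207 and 199 in cKO Ctrl, against 336, 408 and 382 in WT IR and 424, 426 and 419.7 in cKO IR. The changes of 0.93 ± 0.049 in WT and 1.07 ± 0.049 in cKO left a wide gap between the groups, and the WT IR Inputs spread more than the cKO IR ones. Phlda3, a small inhibitor of Akt, was found at 12.5, 13.6 and 12.3 CPM in WT Ctrl and 14.5, 12.3 and 13.2 in cKO Ctrl, against 38.2, 29.7 and 30.9 in WT IR and 44.5, 44.1 and 44.9 in cKO IR. Its rise of 1.36 ± 0.081 in WT and 1.74 ± 0.080 in cKO was 1 of the largest of the set.

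Trp53inp1, a nuclear protein that promotes the pro-apoptotic activity of p53, was measured at 60.8, 58.5 and 58.7 CPM in WT Ctrl and 52.2, 47.9 and 51.9 in cKO Ctrl, against 108, 109 and 109.7 in WT IR and 106, 97.4 and 94.02 in cKO IR. Irradiated Inputs were 1.84-fold and 1.95-fold above controls, at 0.88 ± 0.045 in WT and 0.97 ± 0.046 in cKO. Zmat3, a zinc-finger protein that binds RNA, had 22.7, 21.9 and 22.97 CPM in WT Ctrl and 19.7, 20.6 and 22.1 in cKO Ctrl, against 35.8, 39.2 and 36.5 in WT IR and 26.3, 26.7 and 27.6 in cKO IR. It rose in both genotypes without overlap, but by 0.72 ± 0.055 in WT and by 0.37 ± 0.056 in cKO.

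Of the 7 members grouped here under mitochondrial apoptosis, 6 rose in both genotypes and Apaf1 did not. The grouping is loose and takes in Perp, Aen and Ei24, which are described below by other roles. Bbc3 encodes Puma, a BH3-only protein that neutralizes Bcl2 relatives, and lay at 14.9, 16.1 and 14.2 CPM in WT Ctrl and 12.9, 14.2 and 14.8 in cKO Ctrl, against 28.5, 21.4 and 25.4 in WT IR and 23.7, 22.2 and 22.98 in cKO IR. Its changes were 0.73 ± 0.084 in WT and 0.71 ± 0.084 in cKO, with all irradiated Inputs above all controls. Pmaip1 encodes Noxa, another BH3-only protein, with 76.5, 73.9 and 74.7 CPM in WT Ctrl and 69.9, 65.8 and 70.9 in cKO Ctrl, against 112, 103 and 111 in WT IR and 99.3, 93.5 and 95.1 in cKO IR. It rose by 0.54 ± 0.042 in WT and 0.48 ± 0.042 in cKO, also without overlap. Perp, a membrane protein of cell contacts, was low at 1.60, 1.76 and 1.90 CPM in WT Ctrl and 1.60, 1.83 and 1.56 in cKO Ctrl, against 3.05, 2.93 and 3.34 in WT IR and 2.68, 2.71 and 2.92 in cKO IR. Even so the irradiated Inputs stayed apart from the controls, at 0.82 ± 0.14 in WT and 0.73 ± 0.14 in cKO.

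Bax, which forms pores in the outer mitochondrial membrane, stood at 29.4, 28.5 and 29.5 CPM in WT Ctrl and 31.5, 31.3 and 33.3 in cKO Ctrl, against 36.1, 30.4 and 32.8 in WT IR and 47.6, 45.3 and 51.6 in cKO IR. The cKO IR Inputs were clearly the highest, and the rise was 0.18 ± 0.061 in WT and 0.59 ± 0.060 in cKO. In WT the call was marginal (edgeR adjusted p = 0.026), and it was lost under 6 of 14 alternatives, with any of the 3 WT Ctrl replicates left out and with replicate 1 or 3 of WT IR left out among them. Aen, a nuclease that degrades DNA in dying cells, lay at 21.5, 23.6 and 20.3 CPM in WT Ctrl and 21.2, 19.7 and 21.4 in cKO Ctrl, against 28.2, 24.8 and 25.2 in WT IR and 29.05, 30.8 and 31.1 in cKO IR. Its irradiated Inputs stayed above the controls in both genotypes, with changes of 0.26 ± 0.065 in WT and 0.55 ± 0.065 in cKO. Ei24, a membrane protein of the endoplasmic reticulum, was at 61.4, 61.7 and 57.1 CPM in WT Ctrl and 55.97, 54.2 and 56.2 in cKO Ctrl, against 78.9, 70.2 and 72.1 in WT IR and 75.3, 77.02 and 80.4 in cKO IR. It rose by 0.30 ± 0.047 in WT and 0.48 ± 0.047 in cKO with no overlap. Apaf1, the scaffold of the apoptosome, had 82.7, 81.2 and 79.4 CPM in WT Ctrl and 81.3, 81.3 and 80.9 in cKO Ctrl, against 81.9, 93.4 and 86.1 in WT IR and 68.5, 69.01 and 69.3 in cKO IR. WT Inputs overlapped, at 0.10 ± 0.042 (edgeR adjusted p = 0.073), and the cKO IR Inputs lay below all the others, at -0.24 ± 0.043. With an offset for exon length the cKO change of Apaf1 was -0.094 and no longer called (edgeR adjusted p = 0.0608), and the WT change was called under 2 alternatives.

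The 3 members grouped here, loosely, under death receptors rose in both genotypes. Eda2r, a receptor for an ectodysplasin, was low at 0.722, 0.666 and 0.508 CPM in WT Ctrl and 0.544, 1.16 and 0.422 in cKO Ctrl, against 2.15, 1.99 and 2.31 in WT IR and 2.66, 2.36 and 2.33 in cKO IR. Irradiated Inputs were 3.40-fold and 3.41-fold above controls by the fit, at 1.76 ± 0.27 in WT and 1.77 ± 0.26 in cKO, although 1 cKO Ctrl library reached 1.16 CPM. Tnfrsf10b, the mouse receptor for the death ligand Trail, lay at 6.10, 5.58 and 5.49 CPM in WT Ctrl and 4.67, 5.13 and 4.72 in cKO Ctrl, against 9.97, 11.01 and 10.1 in WT IR and 9.40, 8.93 and 8.61 in cKO IR. It rose by 0.86 ± 0.083 in WT and 0.89 ± 0.084 in cKO with groups well apart. Fas was found at 49.5, 53.3 and 54.6 CPM in WT Ctrl and 59.6, 57.3 and 58.1 in cKO Ctrl, against 64.3, 59.8 and 58.9 in WT IR and 91.5, 85.9 and 83.6 in cKO IR. The cKO IR Inputs stood above all other Inputs, and the changes were 0.22 ± 0.048 in WT and 0.58 ± 0.047 in cKO.

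Among the stress and metabolic members, Ak1 moved most of all 32 in both genotypes. Ak1, an adenylate kinase that balances ADP with ATP and AMP, was at 0.917, 0.849 and 0.816 CPM in WT Ctrl and 0.781, 0.854 and 0.923 in cKO Ctrl, against 3.52, 3.17 and 3.05 in WT IR and 3.28, 3.05 and 4.04 in cKO IR. This was a 3.77-fold and 4.04-fold rise from a low level, or 1.91 ± 0.17 in WT and 2.01 ± 0.16 in cKO, rank 78 and 71 of 16090 genes by fold change. Ephx1, a hydrolase that detoxifies epoxides, had 46.8, 46.00 and 44.5 CPM in WT Ctrl and 46.3, 47.7 and 45.2 in cKO Ctrl, against 85.03, 85.5 and 82.9 in WT IR and 80.6, 86.1 and 82.9 in cKO IR. The 6 irradiated Inputs lay between 80.6 and 86.1 CPM and the 6 controls between 44.5 and 47.7, and the changes were 0.88 ± 0.040 in WT and 0.84 ± 0.040 in cKO.

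Dcxr, a reductase of sugars and carbonyls, was at 14.5, 15.1 and 14.5 CPM in WT Ctrl and 16.1, 16.2 and 16.8 in cKO Ctrl, against 26.00, 21.3 and 23.97 in WT IR and 29.7, 28.95 and 29.2 in cKO IR. It rose by 0.69 ± 0.065 in WT and 0.84 ± 0.063 in cKO without overlap. The sestrins Sesn1 and Sesn2 both restrain the mTORC1 growth pathway, and they moved in opposite directions. Sesn2 stood at 60.4, 59.1 and 56.6 CPM in WT Ctrl and 54.5, 53.1 and 55.8 in cKO Ctrl, against 94.02, 91.2 and 91.1 in WT IR and 69.8, 72.6 and 73.4 in cKO IR. It rose by 0.65 ± 0.040 in WT and 0.40 ± 0.040 in cKO, and the WT IR Inputs were the highest. Sesn1 fell, with changes of -0.28 ± 0.060 in WT and -0.28 ± 0.059 in cKO. Tigar, which lowers a regulator of glycolysis, changed by 0.062 ± 0.066 in WT and 0.20 ± 0.065 in cKO. Its call in cKO was lost when replicate 1 of cKO Ctrl or replicate 1 or 3 of cKO IR was left out.

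The DNA repair members gave small and mixed changes. Polk, a polymerase that copies past lesions, stood at 14.7, 13.2 and 12.7 CPM in WT Ctrl and 13.7, 12.6 and 13.4 in cKO Ctrl, against 18.2, 21.1 and 18.4 in WT IR and 16.99, 15.9 and 17.9 in cKO IR. It rose by 0.51 ± 0.075 in WT and 0.36 ± 0.075 in cKO, with irradiated Inputs above controls. Rrm2b, the ribonucleotide reductase subunit that p53 controls, rose by 0.22 ± 0.064 in WT and 0.43 ± 0.064 in cKO. Its WT call was lost without replicate 3 of WT IR (0.18, edgeR adjusted p = 0.065). Ercc5, a nuclease of nucleotide excision repair, changed by 0.34 ± 0.086 in WT and 0.11 ± 0.086 in cKO. Without replicate 1 of cKO Ctrl the cKO change was 0.24 and called (edgeR adjusted p = 0.0233), and the interaction was not called (edgeR adjusted p = 0.18). Ddb2 and Xpc recognize damage in the same pathway, and neither was called higher. Ddb2 was not called, with 0.074 ± 0.14 in WT and -0.33 ± 0.14 in cKO, but was called lower in cKO under 4 alternatives, with -0.42 under the length offset. Xpc lay at 33.3, 36.1 and 33.8 CPM in WT Ctrl and 30.6, 30.2 and 29.6 in cKO Ctrl, against 33.1, 29.02 and 31.8 in WT IR and 22.6, 24.5 and 23.7 in cKO IR. It was called lower in cKO, with -0.14 ± 0.055 in WT and -0.35 ± 0.056 in cKO (edgeR adjusted p = 0.067 in WT), and the groups did not overlap in either genotype. Without replicate 1 of WT IR the WT change was called too, at -0.18 (edgeR adjusted p = 0.0133). Gdf15, a secreted cytokine that rises under stress in many cells, rose by 0.38 ± 0.073 in WT and 0.49 ± 0.073 in cKO.

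Per kilobase of exon, levels in the WT Ctrl Inputs spanned from Eda2r at 0.107 ± 0.0188 CPM per kb to Ccng1 at 56.2 ± 1.53 (SD, n = 3). After Ccng1 came Pmaip1 at 27.5 ± 0.50 and Mdm2 at 27.1 ± 0.67, which did not differ beyond their spread, then Fas at 25.5 ± 1.28, Cdkn1a at 24.5 ± 0.21 and Ephx1 at 23.5 ± 0.59. In WT IR the order of the leaders was Ccng1 at 107 ± 10.4, Cdkn1a at 55.9 ± 0.74, Ephx1 at 43.3 ± 0.71, Pmaip1 at 39.8 ± 1.71 and Mdm2 at 39.6 ± 1.79. Ak1, the member with the largest fold change, remained low per kilobase, at 1.25 ± 0.095 in WT IR and 1.33 ± 0.20 in cKO IR.

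p53 itself did not rise at the RNA level. Trp53 stood at 54.4, 52.8 and 58.3 CPM in WT Ctrl and 56.5, 58.3 and 59.6 in cKO Ctrl, against 49.6, 50.2 and 47.4 in WT IR and 44.4, 42.6 and 46.1 in cKO IR. It fell, with changes of -0.17 ± 0.047 in WT and -0.39 ± 0.047 in cKO. Mdm4, the partner of Mdm2 that masks p53, rose by 0.47 ± 0.057 in WT and changed by 0.069 ± 0.057 in cKO (edgeR adjusted p = 0.35). Ppm1d, a phosphatase that ends the damage signal and a p53 target, was not called, with 0.16 ± 0.068 and 0.002 ± 0.067. Of 21 tested genes among p53 and its regulators, 5 rose and 3 fell in WT, against 14.7% and 17.0% of all genes. In cKO 5 rose and 11 fell, against 21.8% and 23.8%. The largest called changes were those of Rps27l at 0.39 ± 0.046 in WT and 1.01 ± 0.046 in cKO, and of Rpl5, Ep300 and Rpl11, which were 0.66, -0.57 and 0.53 in cKO and 0.031, -0.022 and 0.048 in WT, where they were not called. Rps27l has 816 bases of exon and Ep300 14273, and over all genes the cKO changes varied with exon length, as given below. The part of length in the list counts here and in the next paragraph was not tested.

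Kinases and sensors that signal DNA damage did not follow the targets. Of 14 tested, 1 rose and 6 fell in WT, against 14.7% and 17.0% of all genes. In cKO 1 rose and 10 fell, against 21.8% and 23.8%. Chek1, the checkpoint kinase of replication, fell by -1.24 in WT and -0.83 in cKO. H2afx, the histone variant phosphorylated at breaks, fell by -0.66 and -0.25, and Mdc1, which reads that mark, by -0.13 and -0.52. Downstream of p21, the DREAM complex silences genes of DNA replication and mitosis. Of 24 such genes, 24 fell in WT, against 17.0% of all genes, with a median of -1.50. In cKO 22 fell, against 23.8%, with a median of -0.96. The fall was -1.94 and -0.79 for Birc5, -1.94 and -1.33 for Ccnb2, -1.89 and -1.48 for Plk1 and -1.66 and -2.08 for Cdc25c (log2, WT and cKO). These are also genes of dividing cells, and the granulocyte progenitor markers given above fell in the same libraries.

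**Figure D2:**
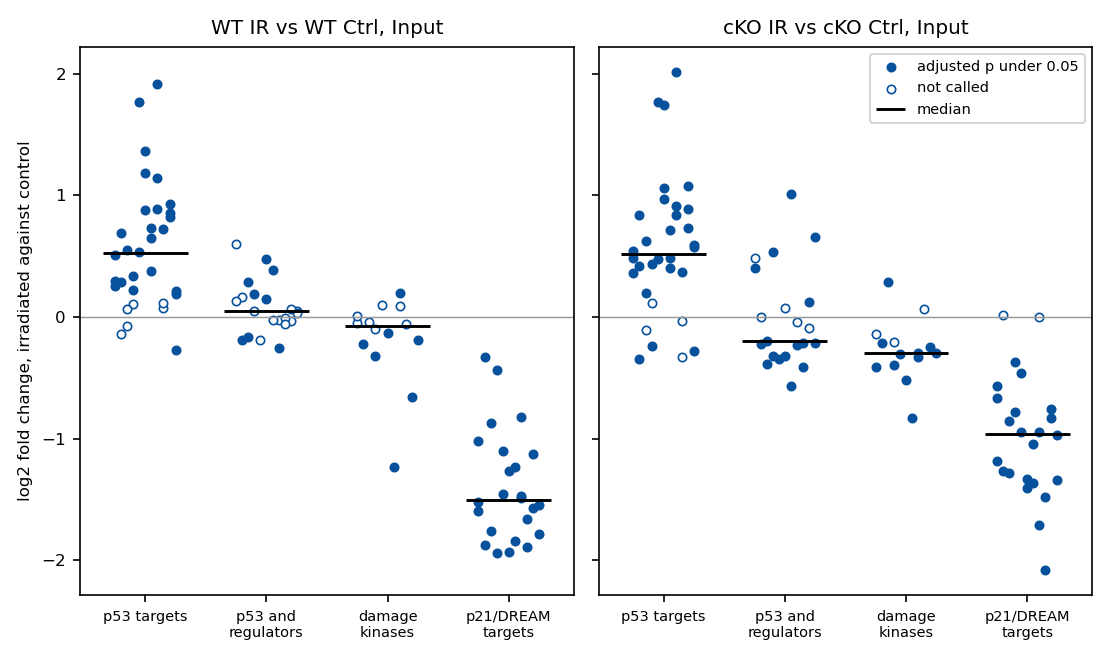
Points give the log2 fold change of single genes, irradiated against control Inputs, in WT on the left and cKO on the right, with filled points called at an adjusted p below 0.05 and a bar at the median of each list. The p53 targets centre on 0.52 in both panels, p53 with its regulators and the damage kinases lie near or below 0, and the p21/DREAM genes centre on -1.50 in WT and -0.96 in cKO.

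The question whether the irradiation effect differed between genotypes was tested as the interaction, the effect in cKO minus that in WT. It was called for 10 of 32 members (5 higher and 5 lower), close to the 30.2% of all genes that were called. Bax (0.41 ± 0.085), Phlda3 (0.38 ± 0.11), Fas (0.36 ± 0.067), Aen (0.29 ± 0.092) and Ei24 (0.19 ± 0.067) rose more in cKO. Zmat3 (-0.35 ± 0.079), Apaf1 (-0.34 ± 0.060), Sesn2 (-0.25 ± 0.056), Xpc (-0.21 ± 0.079) and Cdkn1a (-0.13 ± 0.045) rose less or fell more there. Apart from Apaf1, the 2 genotypes gave the same sign for each of the 10, so these are differences of degree.

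Exon length moved with this comparison. Over all genes the median interaction was 0.26 among the shortest 25% of genes (exons of up to 2065 bases) and -0.19 among the longest 25% (over 6092 bases). The same medians were 0.214 and -0.134 in cKO IR against cKO Ctrl, and -0.009 and 0.040 in WT IR against WT Ctrl. Zmat3 and Apaf1 have 11435 and 9028 bases of exon, and Phlda3, Bax and Fas have 1559, 1576 and 2062. With exon length included as an offset, an alternative added after seeing the data, Aen (0.36), Ei24 (0.22), Sesn2 (-0.31), Cdkn1a (-0.18) and Apaf1 (-0.16) stayed called, whereas Bax (0.13), Phlda3 (0.10), Fas (0.16), Zmat3 (-0.12) and Xpc (-0.15) did not. The irradiation contrasts themselves were called for 25 higher in both genotypes with this offset.

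**Figure D3:**
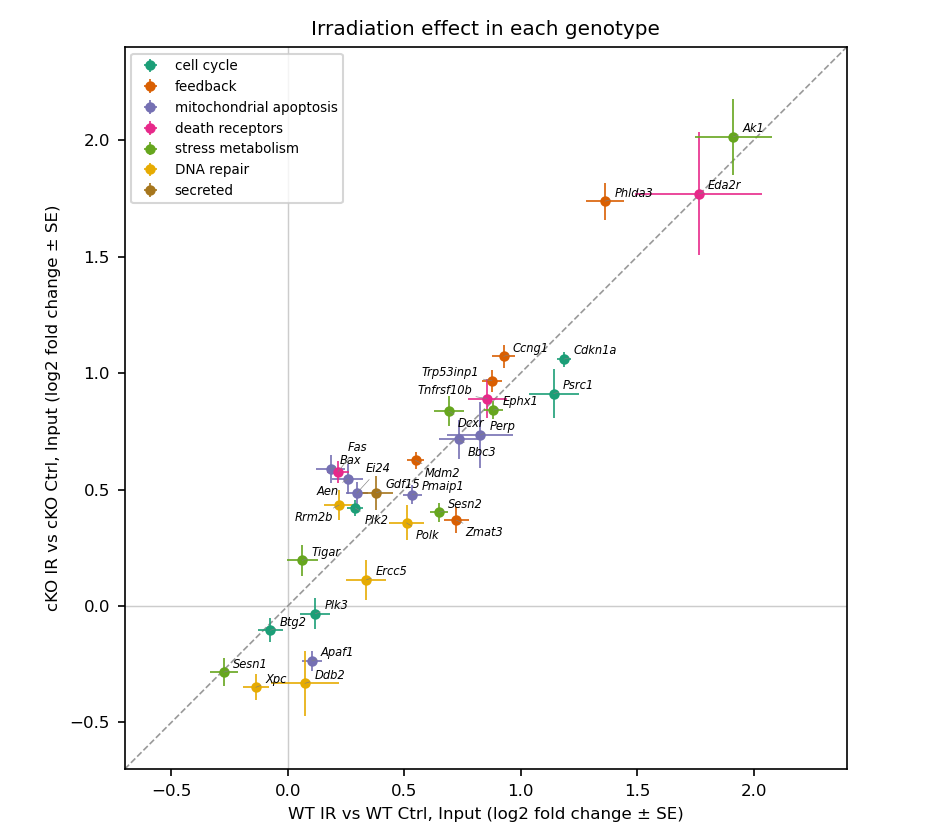
Each point is a p53 target gene, with its log2 irradiation effect in WT Inputs on the x axis and in cKO Inputs on the y axis, bars giving the SE and the dashed line marking equal effects. Most genes lie near the line, from Sesn1 at about -0.28 on both axes to Ak1 at 1.91 and 2.01, with Phlda3, Bax and Fas above it and Zmat3, Sesn2 and Apaf1 below it.

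Genotype alone had smaller effects on the members. In cKO Ctrl against WT Ctrl, 5 of 32 were higher, against 8.05% of all genes, and 4 were lower, against 7.61%, and no change reached 0.5 on the log2 scale. Cdkn1a (0.16 ± 0.032), Btg2 (0.17 ± 0.052), Sesn1 (0.30 ± 0.058), Fas (0.15 ± 0.048) and Ddb2 (0.44 ± 0.14) were higher, and Plk2 (-0.17 ± 0.036), Trp53inp1 (-0.23 ± 0.046), Rrm2b (-0.23 ± 0.064) and Xpc (-0.19 ± 0.055) were lower. Over 14 alternatives the counts ranged from 2 to 6 higher and from 2 to 8 lower. In cKO IR against WT IR, 9 were higher, against 23.9%, and 8 were lower, against 23.8%, led by Bax at 0.54 ± 0.060 and Zmat3 at -0.47 ± 0.055. This contrast shares its libraries with both irradiation contrasts, and with the length offset it gave 5 higher and 10 lower.

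Irradiation was also compared in the IP libraries. Whether Input and IP came from the same RNA pool is not given in the sources used here. The IPs are therefore not taken as a separate test of the Input result. As the mean over genotypes, 29 of 32 members were higher in the irradiated IPs, against 31.2% of all 16038 genes tested, and 0 were lower, against 29.9%. In the Inputs the same mean gave 26 higher, against 22.5%, and 2 lower, against 24.1%. All 6 irradiated libraries lay above all 6 controls for 19 members in the IPs, against 13.7%, and for 22 in the Inputs, against 5.76%. Ddb2 (-0.17 ± 0.095), Fas (0.020 ± 0.030) and Tigar (-0.028 ± 0.029) were the members not called in the IPs. For Fas and Tigar this mean averages opposite directions under the WT and cKO labels, as given below. The same holds for Perp, Gdf15 and Pmaip1, which were called higher, though Pmaip1 moved only within its spread under the WT label.

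Several members that did not rise in the Inputs were higher in the irradiated IPs. Sesn1 changed by -0.28 ± 0.042 in the Inputs and 0.33 ± 0.042 in the IPs, Xpc by -0.24 ± 0.039 and 0.19 ± 0.039. Btg2 (-0.089 ± 0.037 and 0.38 ± 0.027), Apaf1 (-0.067 ± 0.030 and 0.38 ± 0.042) and Plk3 (0.042 ± 0.046 and 0.40 ± 0.050) were also higher in the IPs only by this test. Irradiated and control IPs overlapped for Apaf1, Plk3 and Xpc, and did not for Sesn1 and Btg2. Apaf1 IPs went from a mean of 24.9 to 40.1 CPM under the WT label and from 29.3 to 30.7 under the cKO label. For Plk3 these means went from 10.8 to 17.65 CPM and from 10.9 to 11.6. The difference itself, the change of IP over Input with irradiation, was called for 8 members upward, against 25.3% of all 17373 genes in this fit, and for 10 downward, against 23.1%. The upward ones were Sesn1 at 0.61 ± 0.058, Zmat3 at 0.57 ± 0.055, Trp53inp1 at 0.52 ± 0.058, Btg2 at 0.46 ± 0.045, Apaf1 at 0.44 ± 0.054, Xpc at 0.43 ± 0.057, Plk2 at 0.39 ± 0.035 and Plk3 at 0.35 ± 0.066. Psrc1 had the largest downward change at -0.57 ± 0.076, followed by Fas at -0.38 ± 0.047 and Aen at -0.31 ± 0.054. The median of this change over all genes ran from -0.24 among the shortest 25% by exon length to 0.18 among the longest. With the length offset the counts were 11 upward and 7 downward.

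**Figure D4:**
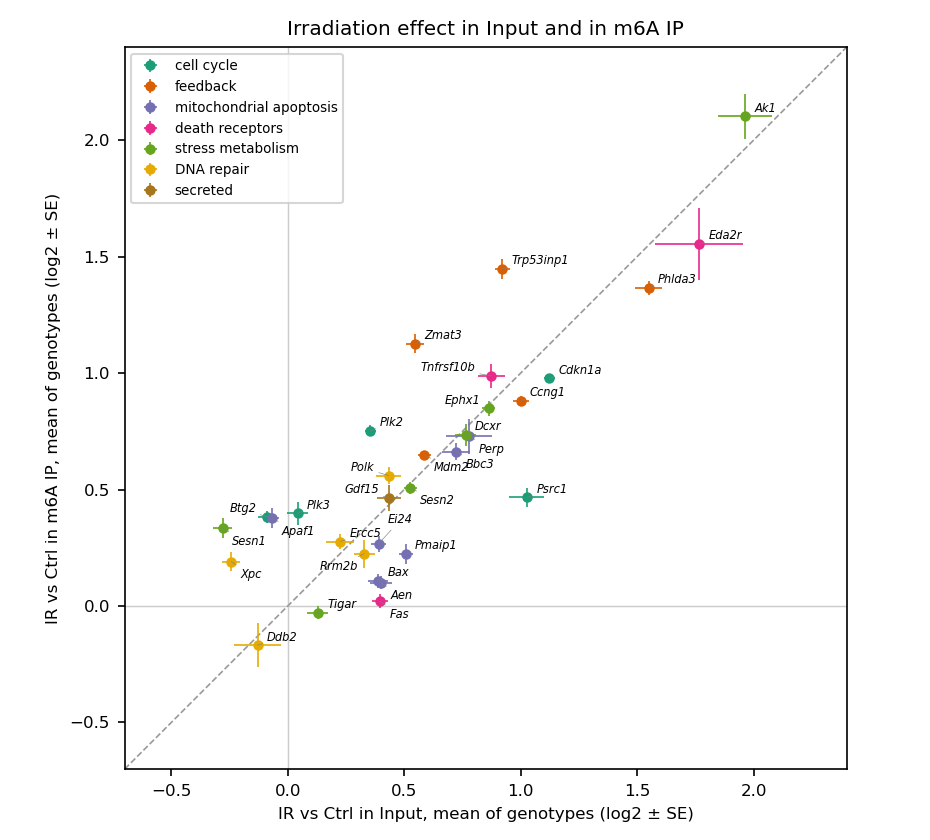
Each point is a p53 target gene, with its irradiation effect averaged over genotypes in the Inputs on the x axis and in the m6A IPs on the y axis (log2, bars are SE, dashed line marks equal effects). Ak1 and Eda2r are highest on both axes, Trp53inp1, Zmat3, Plk2, Sesn1, Btg2, Apaf1, Plk3 and Xpc lie above the line, and Psrc1, Fas, Aen and Bax lie below it.

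m6A is deposited on many mRNAs, mostly around stop codons, in a sequence context written DRACH, of which GGAC is a common core. Consensus peaks, meaning peaks in all 3 IPs of a group that overlap on the strand of the gene, lay over 17 of 32 members in at least 1 group, against 35.1% of 16084 genes. In all 4 groups they lay over 7, against 17.3%. By group they covered 14 members in WT Ctrl (29.6% of all genes) and 13 in cKO Ctrl (27.7%), and 12 in WT IR (25.1%) and 11 in cKO IR (22.3%). Among genes with a count at or above the members' median 49.3% had a peak, against 6 of 16 members. The 7 members with peaks in all groups were Cdkn1a, Phlda3, Mdm2, Aen, Tigar, Ercc5 and Psrc1.

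Peak summits were placed on a single protein-coding transcript per gene, that with the longest coding sequence. Exons of other transcripts were not considered, also for sites in introns. On this basis the 38 peak sites over members comprised 21 in coding sequence, 12 in the 3′ UTR and 5 in introns. GGAC lay within 50 bases of the summit in 36.8% of them and in 35.1 to 36.6% of all consensus peaks of the 4 groups, and GGACT in 7.9% against 11.2 to 12.1%. Windows of 29 bases around the GGAC nearest the summit are shown for sites present in all 4 groups, with the motif in capitals, 5′ to 3′ on the strand of the gene, in GRCm38 coordinates with sequence from RefSeq. Both motifs were searched on the transcript strand alone, and GGACT contains GGAC.
Mdm2, exon 12, coding (chr10:117690539-117690567, minus strand): atgtgctgaggaGGACagcgaggagaagg
Aen, exon 2, coding (chr7:78902506-78902534, plus strand): cacagaggcttcGGACagcaggaggcaac
Aen, exon 4, coding (chr7:78907248-78907276, plus strand): ggcccctgctgaGGACagggggcccgaca
Ercc5, exon 8, coding (chr1:44167073-44167101, plus strand): ccatctcaccccGGACctgtgcagctatt
Tigar, 3′ UTR (chr6:127087635-127087663, minus strand): gttaacttatgaGGACattgaggcttgca
Psrc1, 3′ UTR (chr3:108387779-108387807, plus strand): ttgagcttgaggGGACTcaaccccaccct
The Psrc1 site reached 8.77 to 11.3-fold enrichment by the peak caller in the 4 groups, the Mdm2 site 2.35 to 3.42-fold, and the Ercc5 site 3.66 to 6.97-fold. No GGAC lay near the summits of the Cdkn1a and Phlda3 sites.

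**Figure D5:**
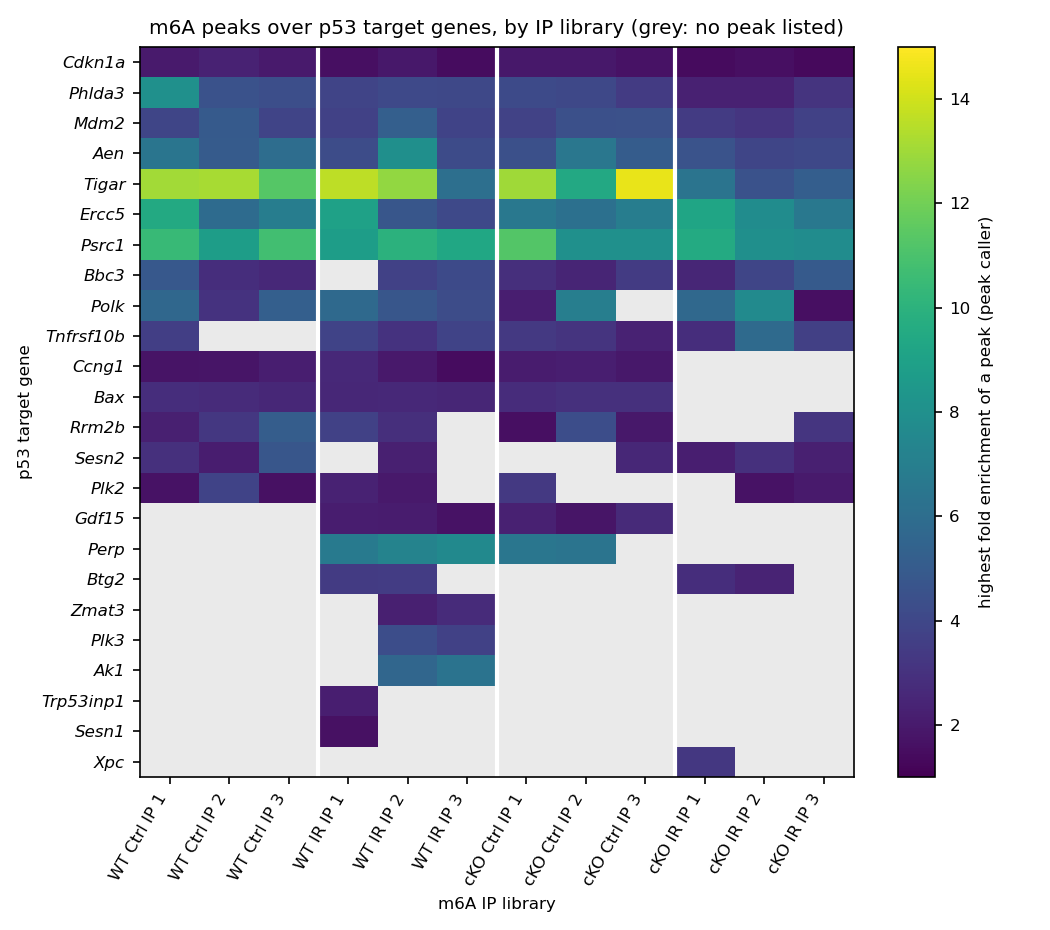
Each cell gives the highest fold enrichment, as the peak caller scored it, of an m6A peak over a p53 target gene (rows) in 1 IP library (columns), with grey where no peak was listed. The 7 genes at the top have a peak in 12 of 12 libraries, Ccng1 and Bax lack one in the 3 cKO IR libraries, and Gdf15 has one in the 3 WT IR and 3 cKO Ctrl libraries alone. Irradiated IPs are shown under their labels, which their Lyz2 levels do not match.

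Members with a peak also differed in IP levels. Mdm2 had 371, 384 and 367 CPM in WT Ctrl and 371, 357 and 358 in cKO Ctrl, against 537, 519 and 537 in WT IR and 623, 627 and 626 in cKO IR. The irradiated IPs were higher by 0.65 ± 0.017 without overlap, and IP exceeded Input by 1.23 ± 0.030 in WT Ctrl and 1.20 ± 0.030 in cKO Ctrl, while its change of IP over Input with irradiation was 0.053 ± 0.030 (edgeR adjusted p = 0.15). Psrc1 lay at 23.8, 22.3 and 22.8 CPM in WT Ctrl and 25.02, 23.9 and 22.7 in cKO Ctrl, against 30.6, 29.4 and 32.2 in WT IR and 36.2, 33.4 and 32.5 in cKO IR. It had the highest IP over Input of the members, 2.79 ± 0.080 and 2.56 ± 0.077 in the 2 Ctrl groups. Cdkn1a was at 149, 149.5 and 149 CPM in WT Ctrl and 131, 128 and 131 in cKO Ctrl, against 266, 269 and 272 in WT IR and 287, 277 and 275 in cKO IR. The irradiated IPs were higher by 0.98 ± 0.019, and IP over Input was 0.56 ± 0.027 and 0.20 ± 0.027 in Ctrl.

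Phlda3 IPs had 39.7, 38.7 and 39.3 CPM in WT Ctrl and 39.6, 44.8 and 41.01 in cKO Ctrl, against 109, 108 and 102 in WT IR and 107, 99.4 and 101 in cKO IR. They rose by 1.37 ± 0.030 with irradiated and control libraries far apart. Ccng1 lay at 228, 236 and 235 CPM in WT Ctrl and 264, 247 and 254 in cKO Ctrl, against 454, 447 and 469 in WT IR and 437, 447 and 442 in cKO IR. Its rise of 0.88 ± 0.019 was clear although its peaks were weak and not listed in the IPs labelled cKO IR. Tnfrsf10b was at 11.4, 10.1 and 12.4 CPM in WT Ctrl and 11.2, 11.1 and 10.9 in cKO Ctrl, against 22.7, 24.3 and 21.4 in WT IR and 20.6, 22.8 and 21.3 in cKO IR. Again the 6 irradiated IPs stood above the 6 controls, by 0.99 ± 0.051. Polk had 26.6, 25.8 and 25.3 CPM in WT Ctrl and 23.4, 26.4 and 24.3 in cKO Ctrl, against 39.96, 38.4 and 37.8 in WT IR and 36.7, 36.2 and 34.9 in cKO IR. It rose by 0.56 ± 0.036 without overlap.

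Bbc3 stood at 26.8, 27.9 and 27.6 CPM in WT Ctrl and 20.1, 20.7 and 20.6 in cKO Ctrl, against 30.2, 34.3 and 31.3 in WT IR and 44.2, 44.2 and 43.6 in cKO IR. The 6 irradiated IPs were above the 6 controls (0.66 ± 0.036), and those labelled cKO IR, which had the high Lyz2 level, were highest. In the Inputs cKO IR against WT IR was not called for Bbc3 (-0.13 ± 0.082, edgeR adjusted p = 0.22). Sesn2 was at 82.6, 79.3 and 87.1 CPM in WT Ctrl and 58.3, 57.9 and 61.7 in cKO Ctrl, against 91.1, 94.2 and 95.5 in WT IR and 108, 107 and 103 in cKO IR. It rose by 0.51 ± 0.026, and cKO Ctrl was the lowest group. Plk2 lay at 81.7, 80.5 and 80.01 CPM in WT Ctrl and 63.7, 62.3 and 62.5 in cKO Ctrl, against 121, 109 and 117 in WT IR and 126, 128 and 122 in cKO IR. It rose by 0.75 ± 0.025 in the IPs, against 0.35 ± 0.025 in the Inputs.

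Among members with smaller irradiation effects in the IPs, Aen lay at 81.4, 75.5 and 78.6 CPM in WT Ctrl and 75.2, 82.01 and 80.5 in cKO Ctrl, against 81.2, 83.2 and 76.4 in WT IR and 87.9, 91.2 and 87.5 in cKO IR. IP over Input was 1.64 ± 0.055 in WT Ctrl and 1.71 ± 0.055 in cKO Ctrl, and the irradiated and control IPs overlapped (0.10 ± 0.028). Ercc5 had 33.7, 34.6 and 32.5 CPM in WT Ctrl and 31.4, 29.8 and 30.6 in cKO Ctrl, against 38.8, 37.4 and 35.4 in WT IR and 39.9, 41.4 and 40.6 in cKO IR. IP exceeded Input by 1.15 ± 0.070 and 0.96 ± 0.070 in Ctrl, and the irradiated IPs were higher by 0.28 ± 0.033. Tigar was at 49.98, 50.02 and 49.3 CPM in WT Ctrl and 63.3, 57.04 and 62.6 in cKO Ctrl, against 54.5, 56.9 and 56.4 in WT IR and 51.8, 53.1 and 51.7 in cKO IR. It was enriched by 1.19 ± 0.054 and 1.36 ± 0.053 in Ctrl, and its mean irradiation change was -0.028 ± 0.029 (not called). Rrm2b lay at 12.1, 11.2 and 11.1 CPM in WT Ctrl and 11.8, 9.40 and 10.2 in cKO Ctrl, against 10.3, 13.1 and 12.3 in WT IR and 13.4, 14.3 and 13.7 in cKO IR. It was depleted in the IPs, at -0.56 ± 0.079 and -0.48 ± 0.080, and the groups overlapped.

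Perp and Gdf15 gave opposite irradiation directions in the IPs labelled WT and cKO, as did Tigar and Fas. Perp IPs had 2.47, 2.24 and 2.52 CPM in WT Ctrl and 6.74, 6.31 and 6.10 in cKO Ctrl, against 9.08, 8.83 and 9.37 in WT IR and 5.23, 4.45 and 4.23 in cKO IR. Gdf15 IPs had 10.4, 10.7 and 10.1 CPM in WT Ctrl and 17.3, 20.05 and 19.2 in cKO Ctrl, against 25.3, 26.3 and 22.9 in WT IR and 17.05, 13.7 and 14.1 in cKO IR. For Perp and Gdf15, the libraries labelled WT IR and cKO Ctrl were above those labelled WT Ctrl and cKO IR. Peaks over Gdf15 were listed in the former 6 libraries and in none of the latter. The same 6 IPs were those with the low Lyz2 level. In the Inputs neither Perp nor Gdf15 was called in cKO Ctrl against WT Ctrl, with -0.076 ± 0.14 for Perp and -0.011 ± 0.074 for Gdf15. Tigar IPs went from a mean of 49.8 to 55.9 CPM under the WT label and from 61.0 to 52.2 under the cKO label. The Tigar libraries labelled WT IR and cKO Ctrl also lay above those labelled WT Ctrl and cKO IR. Fas IPs went from a mean of 55.2 to 49.9 CPM under the WT label and from 52.1 to 59.3 under the cKO label. Pmaip1 IPs went from a mean of 26.3 to 25.5 CPM under the WT label, where the replicates overlapped. Under the cKO label they went from 19.1 to 26.9 CPM.

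Across all members, IP over Input was higher than the average gene for 13 and lower for 13 in WT Ctrl, against 38.1% and 37.5% of all genes, and for 15 and 16 in cKO Ctrl, against 37.8% and 36.0%. The groups labelled WT IR gave 14 higher and 13 lower, against 37.0% and 36.5%, and those labelled cKO IR 16 and 13, against 36.9% each, with the Lyz2 levels of Input and IP not matching in either. Psrc1, Aen, Phlda3, Mdm2, Tigar and Ercc5 were among the enriched members in both Ctrl groups, and Trp53inp1 (-1.94 ± 0.061 in WT Ctrl), Apaf1 (-1.91 ± 0.055) and Pmaip1 (-1.73 ± 0.053) were the most depleted members in WT Ctrl and had no consensus peak.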

How the data were processed

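MeRIP-seq was performed on 24 libraries in 8 groups of 3. Per the study's methods, reads were trimmed with Trimmomatic (version 0.39), aligned with HISAT to mm10 and counted over GENCODE M19 genes, and the authors deposited raw gene counts per library. The authors also deposited MACS2 peaks called per library and strand, with a fold enrichment (ratio), −log10 p-value and −log10 q-value (lowest 2.0) and a score for each peak; which control the peak caller used is not given in the sources used here. Of these, the fold enrichment was used.

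Genes reaching 10 counts in 3 or more libraries were tested with edgeR (4.0.16, R 4.3.3) by the quasi-likelihood test on a group design, TMM scaling and Benjamini-Hochberg adjustment over all genes, with a threshold of 0.05. Inputs and IPs were fitted separately for irradiation and together for IP over Input. DESeq2 (1.42.0), other filters and scalings, a replicate block and left-out replicates were alternatives, and an offset for exon length was chosen after seeing the data. The tests were tested on simulated data. Gene names and exon lengths came from GENCODE M21 (54409 of 54446 identifiers matched), sequences from RefSeq GRCm38. Values in every library are given for members called with a change of at least 0.5 in either genotype or called in the interaction, and for IPs for members with a consensus peak and a change of at least 0.5; from other lists Trp53, Mdm4 and Ppm1d and up to 4 genes with the largest called changes are named. The members and lists were chosen with earlier results of these data known. Of 15 damage genes listed, 14 were matched.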

Additional observations from a re-analysis of the deposited data

Results flagged for a closer look

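For 10 p53 target genes the irradiation effect differed between genotypes by the interaction term (edgeR adjusted p below 0.05, cKO minus WT, log2), a count close to the 30.2% of all genes called. The values were 0.405 for Bax, 0.376 for Phlda3, 0.362 for Fas, 0.288 for Aen and 0.188 for Ei24, and -0.354 for Zmat3, -0.339 for Apaf1, -0.247 for Sesn2, -0.213 for Xpc and -0.126 for Cdkn1a. Of 19 alternatives the call was kept in 19 for Sesn2, 18 for Apaf1, 17 each for Bax, Fas and Zmat3, 15 for Phlda3, 14 for Aen, 9 for Ei24, 8 for Cdkn1a and 6 for Xpc. Exon length moved with this comparison over all genes (Spearman rho -0.335 over 16084 genes, which are not independent replicates), and its part in these differences was not separated beyond the offset given in the report.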

How the results depend on the processing

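The members called higher after irradiation ranged from 23 to 26 in WT and from 24 to 25 in cKO over 14 alternatives, and from 25 to 26 for the mean over genotypes over 19. With the exon length offset, chosen after seeing the data, cKO Ctrl against WT Ctrl gave 2 higher and 8 lower and cKO IR against WT IR 5 higher (2 and 5 higher also with the replicate block). With only the 6 libraries of a contrast, 5 were lower in cKO IR against cKO Ctrl and 7 in cKO Ctrl against WT Ctrl. The interaction gave 3 lower without a count filter and 3 with the replicate block. Peaks of at least 4-fold enrichment covered 5 and 3 members in the Ctrl IPs of WT and cKO, and 3 and 2 in the IR IPs, and peaks in at least 2 of 3 replicates covered 20 in WT IR. With single replicates left out, the interaction had 2 to 6 higher and 3 to 5 lower, cKO Ctrl against WT Ctrl 2 to 4 higher and 2 to 4 lower, WT IR against WT Ctrl 1 to 2 lower, cKO IR against WT IR 5 to 9 lower, and the mean over genotypes 2 to 4 lower in Inputs and 0 to 1 in IPs. With the length offset, without and with the block, the direction turned for Phlda3 for the change of IP over Input (0.0805 and 0.0803), Bax for IP over Input in cKO IR (0.1218 and 0.1222), and Btg2 (-0.0301 and -0.0278) and Dcxr (-0.0771 and -0.0763) in cKO IR against WT IR, where both had been called higher. With single replicates left out, Ddb2 in WT ranged from -0.1153 (without WT IR Input replicate 2) to 0.2375, and Plk3 in cKO from -0.0667 to 0.0051 (without cKO Ctrl Input replicate 2). The cause of these changes was not tested. Samples of different groups that share a replicate number did not deviate together (r from -0.238 to 0.135 in Inputs and from -0.082 to 0.109 in IPs). The numbers were therefore not taken as pairs. Input and IP of the same number were not compared in this way, and were fitted as unpaired. With the replicate block 25 members were higher and 1 lower in WT, and 25 and 4 in cKO.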
